A study of Mus musculus with 4 samples.

Results

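Constitutive open regions at gene ends were defined as the strong ATAC-seq peaks that lie close to the end of a protein-coding gene and recur in every library of the series. ATAC-seq marks accessible chromatin by the places where the Tn5 transposase can insert sequencing adapters. Dermal fibroblasts of C57BL/6 mice were profiled in 4 groups with 1 library each: cells with a conditional knockout of Sod2 (Sod2-/-), Sod2+/+ control cells, Sod2+/+ cells treated with rotenone at 250 µM, and Sod2+/+ cells treated with vehicle. Sod2 encodes the manganese superoxide dismutase of mitochondria, and rotenone inhibits complex I of the respiratory chain. All 4 titles carry 100 days, with no statement of what the days count. The promoter that drives the recombinase, the number of mice behind a library and the duration of the rotenone treatment are not given by the sources used here. Each peak list was ranked by the authors' −log10 p, and the 30000 highest ranked peaks were called strong. A control peak was a member when its midpoint lay within 1000 bp of either end of a protein-coding gene and a strong peak of each of the other 3 libraries overlapped it. This rule gave 5897 members of the 30000 strong control peaks. Because the members were chosen by the ranks of their own peaks, their high level in all 4 libraries is a description, and with 1 library per group no test of any difference was possible.

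Chromatin at the promoters of broadly used genes is open in most cell types. Such promoters are typically rich in CpG dinucleotides, carry no TATA box and are kept free of nucleosomes around the start site by transcription factors such as SP/KLF proteins, NF-Y and ETS proteins. NF-Y, a trimer that contacts the CCAAT box, is known to bind at promoters of cell cycle genes and at many promoters that are active in every tissue. Enhancers, which lie mostly away from gene ends, vary more between cell types and with stimuli, and in fibroblasts many of them are bound by AP-1, the family to which Junb belongs.

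Promoter sequences were examined in windows of 300 bp around annotated start sites (250 bp before and 50 bp after, RefSeq, GRCm38.p6, which is the assembly behind mm10). The 250 bases before the start are printed here for 9 members on which the results below turn, with matches to 11 transcription factor motifs in capitals. The first set is from members with a named gene that ranked high in all 4 libraries. They are shown for their CCAAT boxes, which read ATTGG on the other strand.
Hjurp, chr1:88277580-88277829, minus strand: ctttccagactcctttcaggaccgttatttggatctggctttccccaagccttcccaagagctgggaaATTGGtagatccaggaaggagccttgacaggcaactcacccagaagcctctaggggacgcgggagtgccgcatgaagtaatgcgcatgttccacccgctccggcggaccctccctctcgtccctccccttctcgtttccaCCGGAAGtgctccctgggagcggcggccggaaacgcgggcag
Arrdc4, chr7:68749239-68749488, minus strand: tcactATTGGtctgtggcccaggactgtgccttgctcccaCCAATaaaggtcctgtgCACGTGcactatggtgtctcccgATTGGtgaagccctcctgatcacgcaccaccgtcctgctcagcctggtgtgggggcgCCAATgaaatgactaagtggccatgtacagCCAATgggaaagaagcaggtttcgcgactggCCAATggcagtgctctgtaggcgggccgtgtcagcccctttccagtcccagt
Zfp869, chr8:69716903-69717152, minus strand: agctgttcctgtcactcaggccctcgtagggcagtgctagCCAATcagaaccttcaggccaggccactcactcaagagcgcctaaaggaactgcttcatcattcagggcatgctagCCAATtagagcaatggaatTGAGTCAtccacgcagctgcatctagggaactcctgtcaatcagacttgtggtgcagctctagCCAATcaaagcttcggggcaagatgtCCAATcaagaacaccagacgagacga
Tle4, chr19:14598184-14598433, minus strand: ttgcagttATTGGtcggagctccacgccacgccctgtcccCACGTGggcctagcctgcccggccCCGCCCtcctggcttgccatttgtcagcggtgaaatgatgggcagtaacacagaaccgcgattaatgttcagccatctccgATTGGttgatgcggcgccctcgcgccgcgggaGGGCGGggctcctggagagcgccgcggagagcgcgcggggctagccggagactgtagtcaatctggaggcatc
In these windows Arrdc4 holds 6 CCAAT boxes, Zfp869 holds 4 and a TGANTCA match of the AP-1 type, Tle4 holds 2 with 2 SP/KLF boxes, and Hjurp holds 1 with an ETS motif. Arrdc4 and Tle4 each also carry 1 CACGTG. The second set is from regions whose fold enrichment differed between libraries. Serbp1 and Klf13 were higher in both the knockout and rotenone, Ccnb2 was lower in the knockout, and the rank of Smarca4 varied among the most.
Serbp1, chr6:67266729-67266978, plus strand: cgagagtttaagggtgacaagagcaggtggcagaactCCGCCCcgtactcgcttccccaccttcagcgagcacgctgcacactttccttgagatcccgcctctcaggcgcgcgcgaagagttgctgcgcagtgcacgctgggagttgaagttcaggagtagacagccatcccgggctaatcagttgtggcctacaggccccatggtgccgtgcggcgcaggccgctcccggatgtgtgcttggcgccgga
Klf13, chr7:63938916-63939165, minus strand: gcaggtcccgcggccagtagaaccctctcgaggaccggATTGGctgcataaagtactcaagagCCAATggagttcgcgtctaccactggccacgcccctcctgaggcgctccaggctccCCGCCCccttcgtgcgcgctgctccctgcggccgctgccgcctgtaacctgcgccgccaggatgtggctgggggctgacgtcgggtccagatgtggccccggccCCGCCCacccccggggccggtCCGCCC
Ccnb2, chr9:70421555-70421804, minus strand: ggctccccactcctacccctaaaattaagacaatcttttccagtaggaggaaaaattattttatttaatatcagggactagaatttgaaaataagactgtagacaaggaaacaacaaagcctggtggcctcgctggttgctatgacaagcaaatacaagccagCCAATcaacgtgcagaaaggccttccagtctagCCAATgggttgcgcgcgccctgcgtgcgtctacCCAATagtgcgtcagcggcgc
Smarca4, chr9:21615919-21616168, plus strand: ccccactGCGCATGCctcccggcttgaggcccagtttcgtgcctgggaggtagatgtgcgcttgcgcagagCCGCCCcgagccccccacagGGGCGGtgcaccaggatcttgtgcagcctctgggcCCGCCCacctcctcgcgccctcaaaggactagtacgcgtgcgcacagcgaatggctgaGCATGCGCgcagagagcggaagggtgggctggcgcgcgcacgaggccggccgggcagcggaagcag
Ccnb2 holds 3 CCAAT boxes and no SP/KLF box. Smarca4 holds 2 NRF1 motifs and 3 SP/KLF boxes and no CCAAT box. The last sequence is the promoter of Sod2, the gene targeted in the knockout, with 4 SP/KLF boxes and 1 CCAAT box.
Sod2, chr17:13007589-13007838, plus strand: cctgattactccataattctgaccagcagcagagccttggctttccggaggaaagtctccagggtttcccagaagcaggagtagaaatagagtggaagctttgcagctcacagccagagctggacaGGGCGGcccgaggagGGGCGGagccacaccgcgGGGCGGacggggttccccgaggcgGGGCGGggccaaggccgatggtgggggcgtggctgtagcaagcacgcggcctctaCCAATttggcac

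Gene end peaks of the control recurred in the other libraries more often than peaks elsewhere. Of 7354 strong control peaks at gene ends, 5897 were constitutive (80.2%, 95% Wilson interval 79.3% to 81.1%), against 13778 of 22646 strong control peaks away from gene ends (60.8%, 60.2% to 61.5%). These intervals cover counting error only. The gap between the classes was seen at each strength of the control peak. Among control ranks 1 to 7500, 99.6% of gene end peaks and 98.1% of other peaks were constitutive. The shares were 92.0% and 82.1% in the next 7500 ranks, 69.3% and 50.7% in the 7500 after these, and 35.0% and 22.6% in the last 7500. The gap depended on width: among control peaks of up to 200 bp the 2 classes had like shares, 33.3% and 33.7%, while among peaks over 600 bp the shares were 90.5% and 80.7%.

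**Figure D1:**
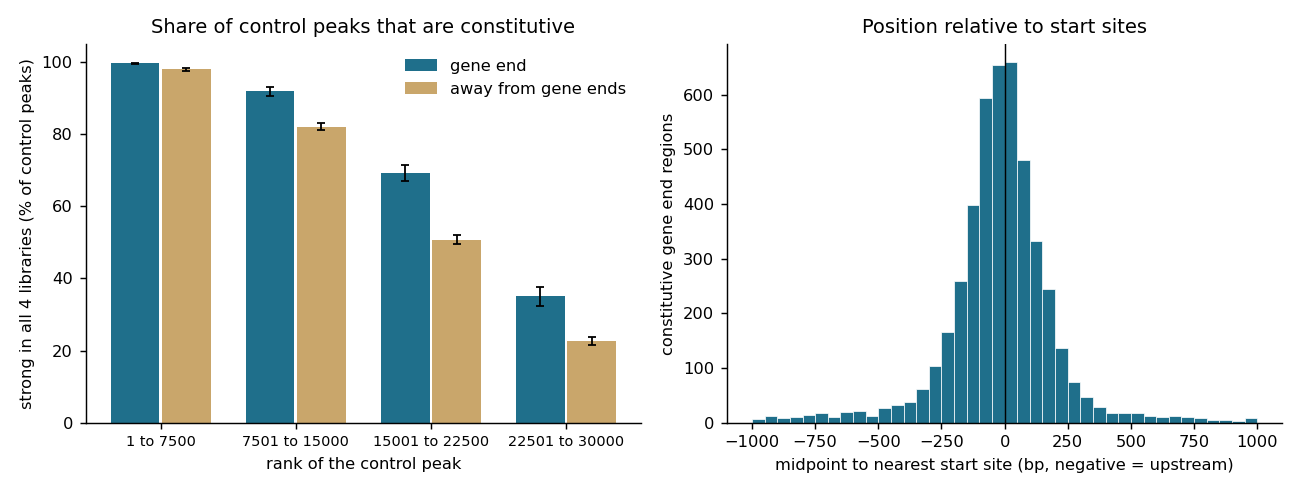
The left panel plots the percentage of strong control peaks that overlapped a strong peak in all 3 other libraries, for gene end peaks and for other peaks, by rank of the control peak, with 95% Wilson intervals. The right panel counts the gene end members by the distance in bp from their midpoint to the nearest start site; most of the 4607 lie within 200 bp.

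The gene end control peaks that failed the rule were mostly present at a lower rank. Of these 1457 peaks, 1435 overlapped a peak of any strength in every library, and 1155 had a counterpart among the 60000 highest ranked peaks of each library. The strong counterpart was missing in 1 library for 661 of them, in 2 for 551 and in 3 for 245. For 380 it was missing in both the knockout and rotenone while vehicle held it. Vehicle held a strong counterpart of 6739 of the 7354 gene end peaks, rotenone of 6431 and the knockout of 6394. The rank limit has no gap beside it: Cdc42se2 was inside, at ranks 28292 in the knockout, 29999 in control, 17534 in rotenone and 22928 in vehicle, and Xylt1 was outside, at 29210, 26925, 27296 and 30013. The same holds for distance, with Edar inside at 1000 bp (folds 6.61, 5.28, 5.17 and 5.93 in the same order) and Rfxank outside at 1003 bp (folds 5.28, 5.13, 5.02 and 6.10).

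Most members were promoters of the annotated start. Strand was known from the promoter table for the genes of 4962 members, and 4728 of these (95.3%) lay within 1000 bp of a 5′ end. Only 234 (4.7%) were near a 3′ end alone, and 596 (12.0%) lay near the 5′ ends of 2 genes on opposite strands. The midpoint of 4607 members was within 1000 bp of a start site, with a median offset of −12 bp (quartiles −109 and 82 bp), and 78.8% were within 200 bp. The members between divergent genes ranked better than the members as a whole. Their median rank was 5975.5 in the knockout, 7211.5 in control, 5785 in rotenone and 6979.5 in vehicle, and their median width was 541.5, 671.5, 530 and 647 bp in the same order. The members at 3′ ends alone were weaker and narrower, with median ranks of 11708.5 in the knockout, 11227.5 in control, 12014 in rotenone and 12006 in vehicle, and median widths between 302.5 and 367 bp.

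The members held 6513 protein-coding genes, 29.8% of the 21887 in the annotation. Of these, 6123 had 1 member, 377 had 2 and 13 had more. Genes with a member were longer than the rest, with a median of 22031 bp against 14784 bp. On the X chromosome 175 of 966 genes had a member (18.1%), below the 26.0% to 36.3% of the autosomes, and on the Y chromosome 2 of 256 had one. Gene families, picked after their values were seen, stood far apart. A member was found at 212 of 397 Zfp genes of zinc finger proteins (53.4%), 43 of 78 Mrp genes, most of which encode mitochondrial ribosomal proteins (55.1%), and 30 of 49 Ndu genes of complex I (61.2%). In contrast, 4 of 1110 Olfr genes of olfactory receptors, 3 of 355 Vmn genes of vomeronasal receptors and 1 of 53 Krt genes of keratins had one.

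In every library the members were stronger, by rank, and wider than the constitutive regions away from gene ends. Their median rank was 7863 in the knockout, 8415 in control, 7636 in rotenone and 8336 in vehicle, against 11030.5, 10845, 11154.5 and 10888 for the regions elsewhere. Their median width was 455 bp in the knockout, 596 bp in control, 465 bp in rotenone and 562 bp in vehicle, against 313, 390, 298.5 and 367 bp. Their median fold enrichment was 6.76 in the knockout, 7.88 in control, 7.43 in rotenone and 8.35 in vehicle, against 6.16, 7.60, 6.68 and 7.99. The knockout was thus below control and rotenone below vehicle in fold and width, at gene ends and elsewhere. The whole lists differ the same way: the −log10 p of the 30000th peak was 16.0 in the knockout, 21.7 in control, 12.3 in rotenone and 18.2 in vehicle, while the lists held 585165, 433013, 347438 and 340240 peaks. Read depth is unknown, and the part of depth or signal quality in these levels was not tested.

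**Figure D2:**
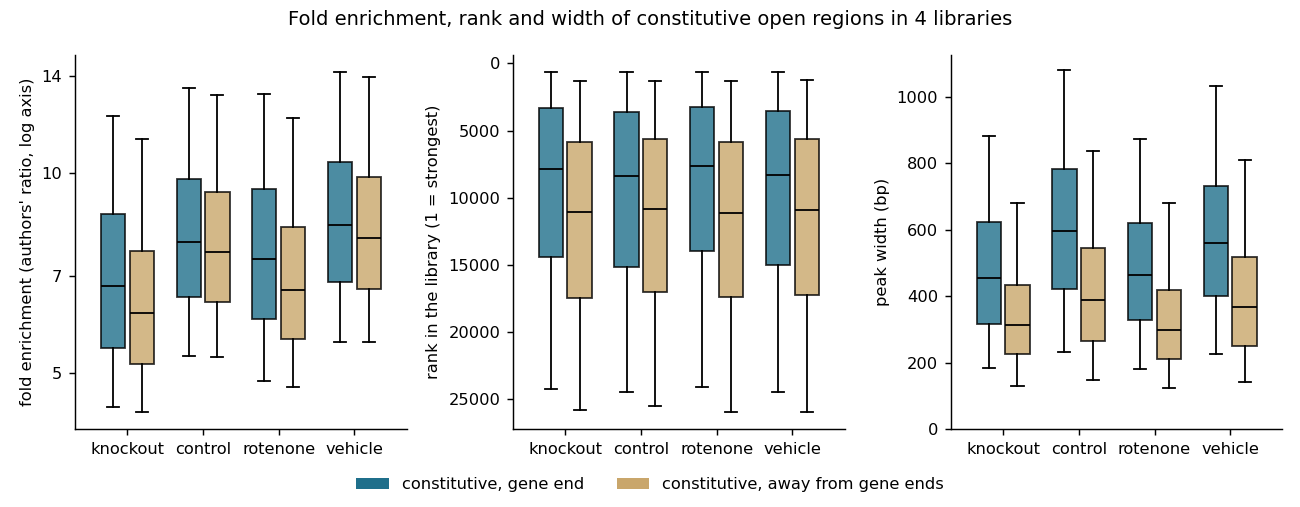
Fold enrichment (the authors' ratio, log axis), rank (1 is the strongest, drawn at the top) and width in bp of the 5897 members and the 13778 constitutive regions away from gene ends, in each library. Boxes span the quartiles with the median as a line, whiskers run from the 5th to the 95th percentile; members rank better and are wider in each library.

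The order of the members was most alike within 2 pairs of libraries that are not the pairs of the design. Across the 5897 members, Spearman's rho between ranks was 0.897 for the knockout and rotenone and 0.917 for vehicle and control. It was 0.816 for the knockout and control and 0.827 for rotenone and vehicle. All members share the same 4 libraries, so these values describe the lists. The rank of a member differed by a median of 2367 places between the knockout and control, 2271 between rotenone and vehicle, and 1536 between vehicle and control. Away from gene ends the same differences were larger, at 3575.5, 3559.5 and 2005 places.

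The highest ranked members with a named gene fell into 2 kinds. Members at predicted or uncharacterised genes are not named. The best rank of any member, named or not, was 6 in the knockout, 3 in control, 4 in rotenone and 4 in vehicle. The members at these ranks are not described here. The first was narrow and very highly enriched. A peak upstream of Ghitm, which encodes a protein of the inner mitochondrial membrane, spanned 80 bp (chromosome 14, 37135977-37136056, mm10) in all 4 libraries, with a fold of 41.6 in the knockout, 42.7 in control, 42.6 in rotenone and 44.9 in vehicle. A neighbouring Ghitm peak (37135638-37135855) had folds of 22.3, 21.0, 26.9 and 22.9 in the same order. The member at the 3′ end of Nudt14, the gene of a UDP-sugar hydrolase (chromosome 12, 112934327-112934485), reached folds of 62.4 in the knockout, 62.7 in control, 65.3 in rotenone and 67.1 in vehicle, at a width of 155 to 159 bp. At the 3′ end of Slc16a9, the gene of a monocarboxylate transporter, the peak was 38 or 39 bp wide with folds of 39.8 in the knockout, 38.7 in control, 47.1 in rotenone and 36.3 in vehicle. Only 6 of 5897 members had a fold of 20 or more in every library, and 4 of these 6 were at most 200 bp wide in control. No list of blacklisted or duplicated regions was used here to filter the peaks, and whether these narrow peaks lie in such regions was not tested.

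The second kind was the broad promoter peak. The member of Hjurp, the chaperone that loads the centromeric histone (chromosome 1, 88277164-88277823), ranked 123 in the knockout, 96 in control, 110 in rotenone and 83 in vehicle, with folds of 9.94, 11.6, 10.1 and 11.7. Arrdc4, an arrestin-like gene (chromosome 7, 68748985-68749677), ranked 165 in the knockout, 109 in control, 123 in rotenone and 89 in vehicle. Zfp869, a zinc finger gene (chromosome 8, 69716716-69717432), ranked 146, 133, 129 and 93 in that order. Their widths ran from 468 to 717 bp over the 4 libraries. The ranks of Tle4, the gene of a Groucho corepressor (chromosome 19, 14598000-14598700), and of Stt3a, the gene of an oligosaccharyltransferase subunit (chromosome 9, 36767428-36768071), were among the 5 that varied least. Tle4 ranked 167 in the knockout, 160 in control, 159 in rotenone and 146 in vehicle, and Stt3a ranked 181, 189, 192 and 197. Msantd4, Evi5l and Catspere2 completed the 10 best mean ranks among members with a named gene.

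The widest members of control were narrower elsewhere. Ankrd10 (chromosome 8, 11635009-11636861) was 441 bp wide in the knockout, 1853 bp in control, 365 bp in rotenone and 1041 bp in vehicle. Cavin3, which encodes a coat protein of caveolae, was 450 bp in the knockout, 1809 bp in control, 366 bp in rotenone and 935 bp in vehicle. Ube2d3, the gene of a ubiquitin-conjugating enzyme, spanned 621, 1723, 632 and 1310 bp in the same order. Acaa2, a gene of mitochondrial fatty acid oxidation, spanned 632, 1706, 1343 and 1629 bp, and H1f2, a linker histone gene, 745, 1681, 680 and 1543 bp. Since these regions were chosen by their control width, the control value is high by that choice. Rotenone was also below vehicle at each of the 5. Of all members, 76.8% were narrower in rotenone than in vehicle, so this is no trait of the widest ones. Whether the choice by control width also favoured wide peaks in vehicle was not tested.

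Promoter windows whose start site lies in a member were CpG-rich. The 5057 such windows, of 4191 members, had a median GC content of 61.7% and a median observed over expected CpG of 0.81, against 56.3% and 0.57 in all 21238 windows of protein-coding genes. The table covers 17492 of 21887 protein-coding genes. The SP/KLF box GGGCGG was in 70.7% of the members' windows, against 46.2% of all windows, the ETS motif CCGGAAG in 24.8% against 11.6%, and the NRF1 motif GCATGCGC in 6.2% against 3.5%. The YY1 motif AAGATGGC was in 5.6% against 3.0%, the ZBTB33 motif CTCGCGAG in 2.8% against 1.2%, the cyclic AMP element TGACGTCA in 4.1% against 2.2%, the E-box CACGTG in 10.5% against 7.8% and the ZNF143 motif ACTACAATT in 1.3% against 0.51%. The TATA box letters TATAAA were in 5.3% of the members' windows against 12.6%, and the AP-1 motif TGANTCA in 4.4% against 7.0%. Most of these values were close to those of the 2712 windows whose start site lies in another strong peak of any of the 4 libraries. Those windows had a median GC content of 61.3% and an observed over expected CpG of 0.77, with the SP/KLF box in 64.7%, the ETS motif in 19.1%, the NRF1 motif in 6.1%, the E-box in 10.5%, the AP-1 motif in 5.0% and the TATA box letters in 6.9%. All motifs were searched on both strands as exact letters, with N as any base and with overlapping matches of different motifs each counted. A match is a description of the letters and does not show that a factor binds.

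The CCAAT box went with rank more than the SP/KLF box or the ETS motif did. It was in 50.3% of the members' windows, against 36.4% of the windows with a start site in another strong peak and 38.2% of all windows. Split by mean rank over the 4 libraries into 4 equal sets from strongest to weakest, 66%, 52.2%, 46.8% and 36.2% of the members' windows held it. The SP/KLF box showed no such gradient, with 71.4%, 70.8%, 72.3% and 68.4%, and neither did the ETS motif, with 25.1%, 25%, 26% and 23.2%. The NRF1 motif and the E-box ran the other way, with 4.3%, 5.8%, 7.6% and 7.1% for NRF1 and 8.8%, 8.9%, 11.7% and 12.8% for the E-box. The number of CCAAT boxes followed the same order. Of all windows with none, 19.1% had their start site in a member (2514 of 13131). This share was 24.1% with 1 box (1300 of 5390), 38.9% with 2 (734 of 1885), 56.8% with 3 (322 of 567) and 70.6% with 4 or more (187 of 265). The median mean rank of the members was 9657, 7623, 5535, 3743 and 2603 in the same order.

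The median GC content of the members' windows was lower with more boxes, at 62.7% with no CCAAT box and 58.0% with 4 or more. Within each of 4 equal sets of windows by GC content the rank was better with a CCAAT box than without, with medians of 6024.5 against 9275 in the lowest, 4846 against 9996.5 in the next, 5886 against 8818 in the third and 7425 against 10466.5 in the highest. The boxes lay at a median of −80.5 bp from the start in the members' windows (quartiles −146.5 and −43.5 bp) and at −87.5 bp in all windows. Of the 100 best ranked members with a window, 79 held a CCAAT box and 63 an SP/KLF box. The ZNF143 motif, though rare, was also more frequent among the strongest members, at 2.4% in the best of the 4 sets and 0.79% to 1.0% in the others.

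**Figure D3:**
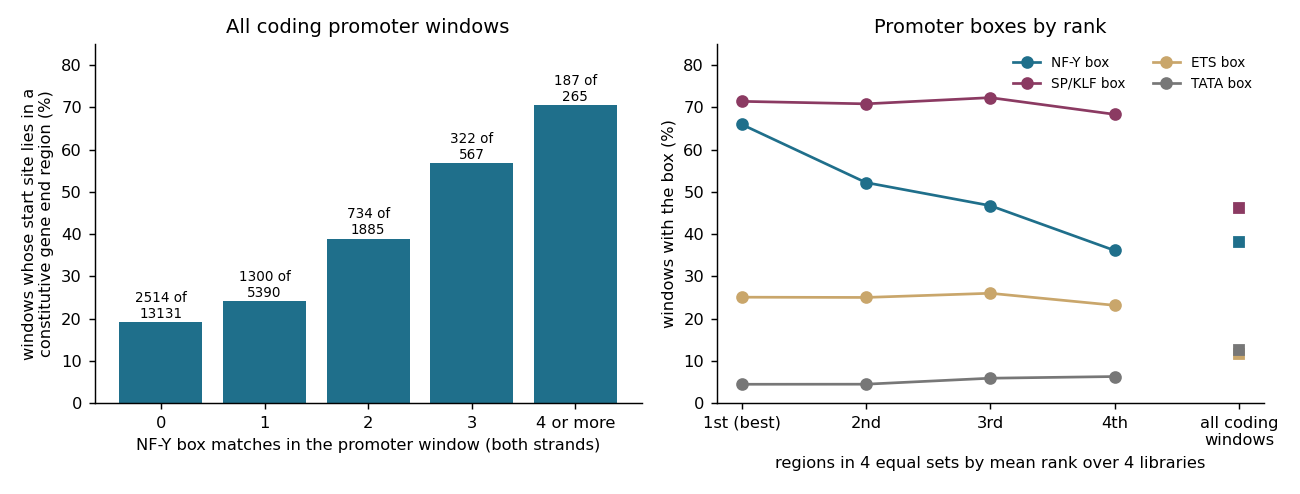
The left panel plots the percentage of all 21238 coding promoter windows whose start site lies in a member, by the number of CCAAT (NF-Y) boxes, with the counts above the bars; it is 19.1% with no box and 70.6% with 4 or more. The right panel plots the percentage of members' windows with each box in 4 equal sets by mean rank, with all coding windows as squares; the NF-Y box is less frequent at weaker ranks and the SP/KLF and ETS boxes are about level.

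Genes used in every cell held members more often than the 29.8% of all protein-coding genes, but this was not particular to them. A member was found at 22 of 32 immediate early and stress genes (68.8%). The same held for 15 of 30 actin cytoskeleton genes (50%) and 12 of 28 genes of senescence and the IGF axis (42.9%). In protein folding, 23 of 30 chaperone genes had one (76.7%). Tcp1, a subunit of the cytosolic chaperonin, had folds of 12.0 in the knockout, 16.7 in control, 15.3 in rotenone and 16.8 in vehicle, and Hsp90b1, the HSP90 of the endoplasmic reticulum, had 10.2, 10.1, 10.9 and 10.3. In translation, 26 of 37 translation factor and tRNA synthetase genes (70.3%) and 27 of 46 cytosolic ribosomal protein genes (58.7%) had one. The ribosomal gene Rpl37 was level over the libraries, with folds of 10.9, 10.8, 11.1 and 10.6 in the same order. Of the proteasome genes 21 of 31 (67.7%) had a member, led by the ATPase gene Psmc4 with folds of 15.1 in the knockout, 16.4 in control, 17.6 in rotenone and 16.8 in vehicle. In transcription and splicing, 24 of 36 genes of RNA polymerase II and its general factors (66.7%) and 21 of 32 spliceosome and hnRNP genes (65.6%) had one. Hnrnpc, which encodes an hnRNP core protein, had folds of 13.4, 14.3, 13.7 and 14.1 in that order.

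Mitochondrial genes, which bear on the design, held members at 23 of 35 genes of the mitochondrial ribosome and import (65.7%) and at 18 of 35 genes of the respiratory chain and ATP synthase (51.4%). Tomm40, the import channel of the outer membrane, had folds of 9.99 in the knockout, 10.4 in control, 10.4 in rotenone and 10.3 in vehicle. Clpp, a matrix protease, had 12.3, 13.0, 11.9 and 12.8, and Sdhb, the iron-sulphur subunit of complex II, 11.8, 14.9, 12.2 and 13.7. None of these 3, named for their rank, passed a 1.5-fold difference in either comparison. Since 1.75% to 4.29% of all members passed in each direction, this is no result about mitochondrial genes. Other members of the 2 lists did pass and are named below. In the cell cycle list 22 of 30 genes had a member (73.3%). The member of Ccna2, the cyclin A gene, ranked 405 in the knockout, 162 in control, 174 in rotenone and 159 in vehicle, so the knockout alone was lower. Its peak was 719 bp wide in the knockout, against 472 bp in control, 447 bp in rotenone and 452 bp in vehicle. The centred log2 fold ratio of the knockout over control, −0.35, did not pass 1.5 times.

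The lists of fibroblast genes lay near or under the 29.8% of all protein-coding genes. Of the collagen and matrix genes 10 of 30 had a member (33.3%), of the dermal fibroblast transcription factors 6 of 30 (20%) and of the fibroblast markers 3 of 15 (20%): S100a4, Vim and Col1a2. The members of the matrix genes were weak, with median ranks of 18918 in the knockout, 13140 in control, 18477.5 in rotenone and 11627 in vehicle. At the ends of Col1a1, the gene of the main collagen of the dermis, the best peak ranked 82071 in the knockout, 46377 in control, 42278 in rotenone and 31340 in vehicle, outside the strong list in each. At Pdgfra, a receptor gene of mesenchymal cells, it ranked 250370, 50699, 148076 and 77822 in the same order. Strong gene end peaks were found at 3 of the 15 fibroblast marker genes in the knockout, 5 in control, 3 in rotenone and 5 in vehicle. Over all protein-coding genes, 35.8% had such a peak in the knockout, 35.7% in control, 36.5% in rotenone and 35.6% in vehicle. With 15 genes, no change of the markers can be read from these counts. The members alone thus do not identify the cell type. Of the markers of other cell types, 0 of 10 myeloid, 0 of 10 lymphocyte, 0 of 6 adipocyte and 0 of 8 muscle and pericyte genes had a member. One keratinocyte gene of 14 (Krt14), 1 endothelial gene of 10 (Tek) and 2 melanocyte and Schwann genes of 8 (Pmel and Mitf) had one, as did 1 of 20 brain and liver genes (Snap25). Mitf had folds of 8.88 in the knockout, 14.8 in control, 17.7 in rotenone and 16.7 in vehicle.

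**Figure D4:**
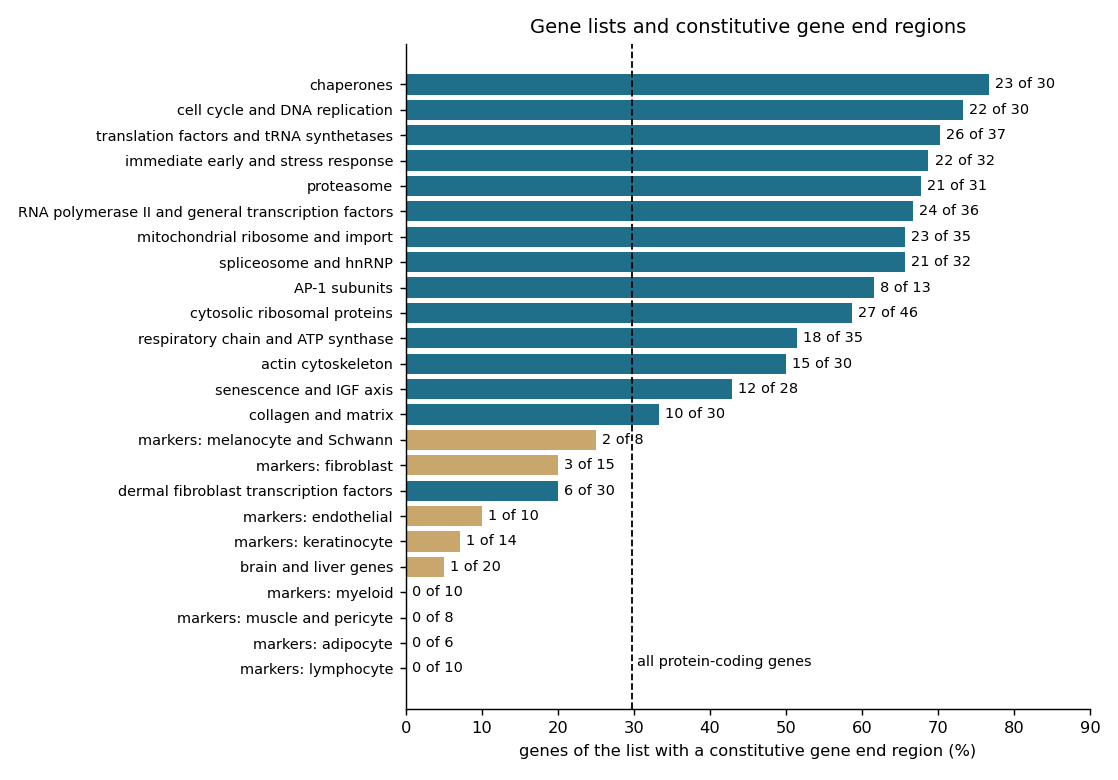
Percentage of the genes of each list that have a constitutive gene end region, with counts beside the bars; the dashed line marks the 29.8% of all protein-coding genes. Lists of broadly used genes lie between 51.4% and 76.7%, and marker lists and brain and liver genes (lighter bars) between 0 and 25%. The immediate early and stress list (68.8%) and the AP-1 list (61.5%) lie within the range of the broadly used genes.

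The Sod2 promoter peak (chromosome 17, 13007499-13008439) ranked 4797 in the knockout, 5579 in control, 4202 in rotenone and 5941 in vehicle, so it was open in the knockout library too. Which exons the Sod2 deletion removes is not given, and a promoter peak does not check the genotype. Of 13 genes of AP-1 subunits 8 had a member (61.5%), and 0 of these passed 1.5 times in either direction in the knockout or in rotenone. Since 2.82% to 3.66% of all constitutive regions passed in each direction, 0 of 8 is near that share and is no result about these genes. Junb had 2 members. The one at its start (chromosome 8, 84978641-84978927) ranked 16278 in the knockout, 19161 in control, 18068 in rotenone and 23412 in vehicle, and the one at its 3′ end (84976050-84976787) ranked 16249, 21392, 17787 and 23906. Jun, another AP-1 subunit, was much stronger, at ranks 4123 in the knockout, 5085 in control, 2882 in rotenone and 5286 in vehicle. Jund ranked 12566 in the knockout, 21226 in control, 12973 in rotenone and 17023 in vehicle. Fos was among the weaker members, at 26941, 25302, 24430 and 19492 in that order. Fosl1, Igf1, Cdkn1a and Cdkn2a had no member. At the ends of Cdkn2a, the gene of p16Ink4a and p19Arf, the best peak ranked 37216 in the knockout, 14847 in control, 56890 in rotenone and 18956 in vehicle.

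To compare fold enrichment between libraries, the log2 ratio of each region was centred on the median of all 19675 constitutive regions, which was −0.26 for the knockout over control, −0.21 for rotenone over vehicle and 0.06 for vehicle over control. After centring, 253 members were at least 1.5 times higher in the knockout than in control (4.29%, against 3.33% of all constitutive regions), and 132 were at least 1.5 times lower (2.24%, against 3.66%). In rotenone 192 members were higher than in vehicle (3.26%, against 2.82%) and 103 were lower (1.75%, against 3.37%). Between vehicle and control, which differ in neither Sod2 nor rotenone, 67 members were higher in vehicle (1.14%, against 0.966%) and 28 were lower (0.47%, against 0.452%). In the knockout and in rotenone, higher shares were thus larger than those of all constitutive regions, which include the members, and lower shares were smaller. Between vehicle and control both shares were close. Away from gene ends, 2.92% were higher and 4.27% lower in the knockout, and 2.63% were higher and 4.07% lower in rotenone. The direction of the split came from centring: with no centring, 50 members were higher and 593 lower in the knockout, and 43 were higher and 410 lower in rotenone. Centred on the members themselves, 177 were higher and 189 lower in the knockout, and 128 were higher and 139 lower in rotenone.

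The members that were higher were also narrower. The 253 members higher in the knockout had a median width of 360 bp in the knockout and 833 bp in control, 243 of them were narrower in the knockout, and 148 had less than 50% of the control width. The 192 members higher in rotenone had a median width of 371.5 bp in rotenone and 735.5 bp in vehicle. The members that were lower had like widths, with medians of 366.5 bp in the knockout and 353.5 bp in control, where 95 of 132 were narrower in the knockout, and of 345 bp in rotenone and 331 bp in vehicle. Fold enrichment is a value of the whole peak, so a region of other extent is not the same stretch of DNA. Among the 2757 members whose widths in the knockout and control were within 1.2 times of each other, 17 were higher (0.62%, against 1.45% of all such constitutive regions) and 79 were lower (2.87%, against 4.06%). Among the 2955 such members for rotenone and vehicle, 14 were higher (0.47%, against 1.32%) and 44 were lower (1.49%, against 3.5%). Of all members, 4837 were narrower in the knockout than in control (82.0%) and 4529 were narrower in rotenone than in vehicle (76.8%). Among constitutive regions away from gene ends these shares were 75.4% and 75.1%. Between vehicle and control, 65.8% of members were narrower in vehicle. By rank, 3086 members were better placed in the knockout than in control (52.3%) and 3226 in rotenone than in vehicle (54.7%). Away from gene ends, 48.4% and 48.5% were better placed.

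**Figure D5:**
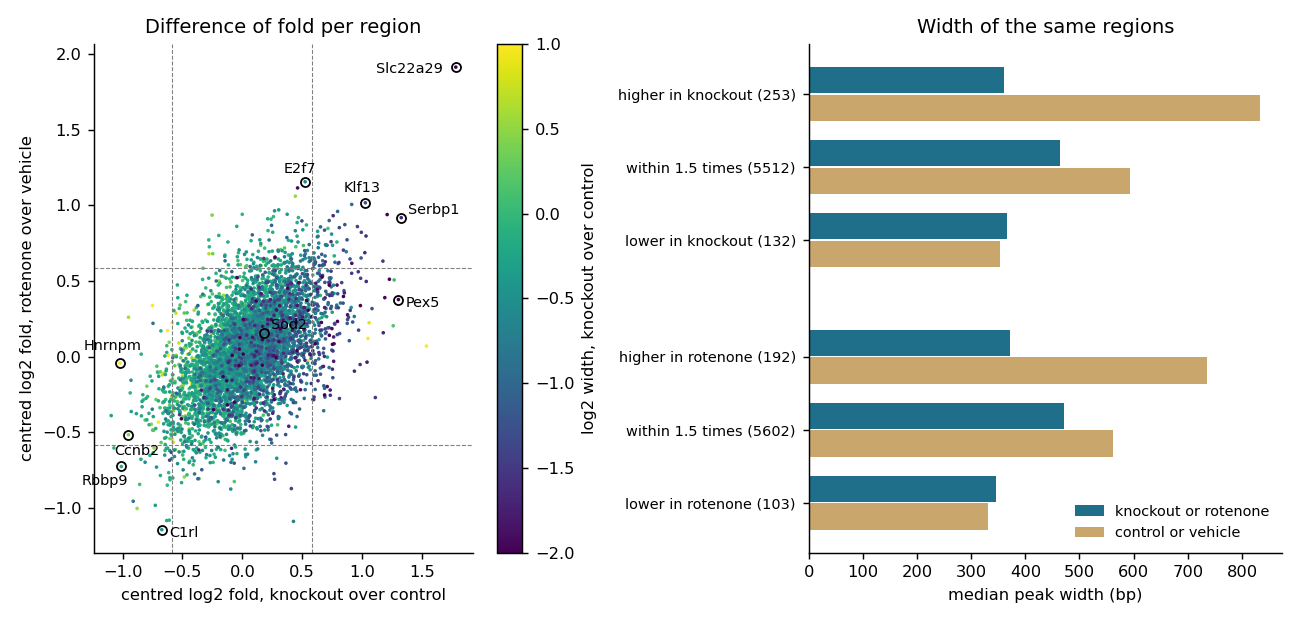
The left panel plots each member by its centred log2 fold ratio, knockout over control and rotenone over vehicle, coloured by the log2 width ratio of the knockout over control, with dashed lines at 1.5 times. The right panel gives the median width in bp of the members that were higher, within 1.5 times or lower; the members higher in the knockout were 360 bp wide there and 833 bp wide in control.

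The 2 comparisons, which share no library, moved alike across the members, with a Pearson correlation of 0.54 and a Spearman correlation of 0.53 over 5897 regions. Of the members higher in the knockout, 59 were higher in rotenone too, which is 23.3% of those higher in the knockout and 30.7% of those higher in rotenone. Of those lower, 28 were lower in both (21.2% and 27.2%), and 0 members were higher in one and lower in the other. The signal limits of the lists also move alike in the 2 comparisons, as given above, and their part in this was not tested. GC content ran with the ratio in both comparisons. From the lowest to the highest of the 4 GC sets of the members' windows, the median centred log2 ratio was 0.01, 0.06, 0.09 and 0.12 for the knockout over control, and 0.02, 0.06, 0.08 and 0.10 for rotenone over vehicle, but −0.00, −0.00, 0.01 and 0.02 for vehicle over control. Windows with the AP-1 motif had a median of 0.04 for the knockout over control, against 0.07 without it, and for rotenone over vehicle 0.07 against 0.06.

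Among the members over 200 bp wide in both libraries, the 5 with the highest ratio of the knockout over control were Serbp1, Pex5, Paqr8, Ppp1r35 and Dip2a. Serbp1, the gene of an mRNA-binding protein (chromosome 6, 67266593-67267686), had folds of 16.7 in the knockout, 7.94 in control, 19.3 in rotenone and 11.8 in vehicle, and widths of 341, 1094, 409 and 687 bp. It was therefore higher and narrower in both comparisons (centred log2 ratios 1.33 and 0.92). Pex5, the receptor for import into peroxisomes (chromosome 6, 124415079-124416130), had folds of 13.0 in the knockout, 6.27 in control, 7.56 in rotenone and 6.72 in vehicle. Here the knockout stood alone, with a width of 211 bp against 1052, 619 and 1007 bp. Paqr8, which encodes a membrane progestin receptor, had folds of 13.1 in the knockout, 6.77 in control, 12.7 in rotenone and 7.62 in vehicle, again high in both. Ppp1r35 had folds of 12.1 in the knockout, 6.32 in control, 12.4 in rotenone and 10.9 in vehicle. Control was the low library here: the centred log2 ratio was 1.19 for the knockout over control and 0.72 for vehicle over control, so Ppp1r35 also passed 1.5 times where neither Sod2 nor rotenone differed. Dip2a followed at 1.18 for the knockout over control.

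The 5 members with the lowest ratio of the knockout over control were Tvp23a, Ccdc34, Hnrnpm, Rbbp9 and Ccnb2. Ccnb2, the gene of cyclin B2 (chromosome 9, 70421392-70421704), had folds of 4.35 in the knockout, 10.0 in control, 6.65 in rotenone and 11.0 in vehicle, at widths of 426, 313, 184 and 303 bp. Rbbp9, the gene of a serine hydrolase (chromosome 2, 144550579-144550936), had folds of 4.55, 10.9, 5.41 and 10.3 in the same order, at nearly the same width in each library (315 to 358 bp). Both the knockout and rotenone were low there, with ranks of 23205 in the knockout and 20644 in rotenone against 4953 in control and 6571 in vehicle. Hnrnpm, the gene of a splicing factor (chromosome 17, 33685316-33685602), was low in the knockout alone, with folds of 4.92 in the knockout, 11.9 in control, 10.2 in rotenone and 12.1 in vehicle. Its peak was 616 bp wide in the knockout and 287 bp in control.

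In rotenone over vehicle the 5 highest were E2f7, Stoml2, Rab1b, Klf13 and Prdm4. E2f7, a repressor of E2F target genes (chromosome 10, 110744801-110745720), had folds of 7.35 in the knockout, 6.10 in control, 12.6 in rotenone and 6.52 in vehicle. Stoml2, a stomatin-like protein of the inner mitochondrial membrane, had 6.73, 5.84, 11.5 and 6.12 in that order. In both, rotenone was the highest and its peak was narrow, at 262 bp and 223 bp, against 777 bp and 924 bp in vehicle. Klf13, a zinc finger factor of the SP/KLF family (chromosome 7, 63938567-63939829), had folds of 8.91 in the knockout, 5.22 in control, 9.45 in rotenone and 5.39 in vehicle. Its rank was 791 in the knockout and 698 in rotenone, against 4092 in control and 4702 in vehicle. Prdm4 was likewise high in both, with centred log2 ratios of 0.91 for the knockout over control and 1.01 for rotenone over vehicle.

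The 5 lowest in rotenone over vehicle were C1rl, Mroh2a, Btn2a2, Exog and Gstk1. C1rl, related to the complement protease C1r (chromosome 6, 124492808-124493301), had folds of 5.78 in the knockout, 11.0 in control, 5.54 in rotenone and 14.1 in vehicle. Exog, the gene of a mitochondrial endonuclease (chromosome 9, 119465710-119465931, at the 3′ end), had 6.29, 13.8, 6.05 and 14 in the same order, and Gstk1, a glutathione transferase, had 6.78, 15.2, 8.0 and 17.9. At each of the 3, the folds in the knockout and rotenone were below those in control and vehicle. All 5 were also lower in the knockout than in control (centred log2 ratios of −0.61 to −0.91). Of all 103 members lower in rotenone, 27.2% were lower in the knockout too, and the 2 ratios correlate over all members (Pearson 0.54). Before centring, only 23.8% of members had a higher fold in the knockout than in control, and 27.1% in rotenone than in vehicle.

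The members whose rank varied most over the libraries separated them in the same way. Slc22a29, a gene of the SLC22 transporter family (chromosome 19, 8252168-8252934), ranked 724 in the knockout, 25969 in control, 335 in rotenone and 20535 in vehicle. Its peak was 65 bp wide in the knockout and in rotenone, against 767 bp in control and 255 bp in vehicle. Smarca4, the gene of the BRG1 ATPase of the SWI/SNF remodeller (chromosome 9, 21615849-21616177), ranked 7250 in the knockout, 29773 in control, 7680 in rotenone and 27742 in vehicle, at widths of 264 to 329 bp. Sgk2, a kinase gene, and Tsc22d1 were also better placed in the knockout and rotenone, Tsc22d1 at 11983 in the knockout and 8767 in rotenone, against 29938 in control and 29989 in vehicle. Unlike at Smarca4, their peaks were much narrower there. Sgk2 spanned 269 bp in the knockout, 725 bp in control, 230 bp in rotenone and 711 bp in vehicle. Tsc22d1 spanned 367, 839, 337 and 818 bp in the same order. The member at the 3′ end of Serpina3n, a protease inhibitor gene, went the other way, at 26120 in the knockout, 6099 in control, 29115 in rotenone and 7786 in vehicle.

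Members at listed genes differed by 1.5 times at few places. Of the 22 members of cell cycle genes, 4 were higher in the knockout and 4 in rotenone, and 0 were lower in either. Over all members 4.29% were higher in the knockout and 3.26% in rotenone, and over all constitutive regions 3.33% and 2.82%. Without centring, 1 cell cycle member was higher and 2 were lower in the knockout, and 0 were higher and 1 lower in rotenone. With centring the higher ones in the knockout were Mcm3, E2f3, Pcna and Ccne1, and in rotenone Mcm3, E2f3, E2f1 and Ccne1. Mcm3, a subunit of the replicative helicase, had folds of 21.9 in the knockout, 16.5 in control, 21.9 in rotenone and 15.8 in vehicle, and widths of 298, 642, 287 and 603 bp. The median centred log2 ratio of the cell cycle members was 0.11 for the knockout over control and 0.22 for rotenone over vehicle, against 0.06 and 0.05 over all members. Among 22 members of immediate early and stress genes, 2 were higher in the knockout, Nfe2l2 and Sqstm1, and 1 in rotenone, Nfe2l2. These counts are near the shares over all members, and without centring 0 of them were higher in either comparison. Nfe2l2, which encodes the transcription factor NRF2, had folds of 8.15 in the knockout, 6.40 in control, 9.09 in rotenone and 6.72 in vehicle. Of the 27 members of ribosomal protein genes 2 were higher in the knockout, Rpl15 and Rps13, and 0 in rotenone. In vehicle 2 were higher than in control, Rpl15 and Rps23, against 1.14% of all members. Counts of 2 members are no result about this list. Rpl15 had folds of 10.7 in the knockout, 7.90 in control, 9.65 in rotenone and 13.4 in vehicle, so control was the low library. Of the 23 members of mitochondrial ribosome and import genes, 2 were higher in the knockout, Tomm22 and Timm50, while 1 was higher (Phb) and 1 lower (Mrpl19) in rotenone. Of the 18 of the respiratory chain and ATP synthase, 1 was higher in the knockout, Ndufa2, and 1 in rotenone, Atp5c1. Over all members 1.75% were lower in rotenone. Counts of 1 or 2 members are no result about either of these 2 lists. The centred log2 ratios were 0.66 for Tomm22, 0.59 for Timm50 and 0.59 for Ndufa2 in the knockout, and 0.67 for Phb, −0.65 for Mrpl19 and 0.97 for Atp5c1 in rotenone. Without centring, the 1 member of these that was still higher was Atp5c1, with folds of 12.6 in rotenone and 7.40 in vehicle. Lower without centring were 1 mitochondrial ribosome and import member in the knockout and 3 in rotenone. Of the respiratory chain and ATP synthase members, 2 were lower in the knockout and 0 in rotenone. Over all members 10.1% were lower in the knockout and 6.95% in rotenone without centring. Of the 10 members of the matrix genes, 0 passed 1.5 times in either direction, with medians of −0.09 in the knockout and −0.06 in rotenone. This count is near the shares over all members. Without centring, 2 of them were lower in the knockout and 2 in rotenone, against 10.1% and 6.95% of all members. Vim, the gene of the filament protein vimentin, was higher in both, with folds of 6.67 in the knockout, 4.87 in control, 7.01 in rotenone and 4.86 in vehicle. Without centring, it passed 1.5 times in neither comparison. Its peak was 404 bp wide in the knockout, 575 bp in control, 382 bp in rotenone and 1141 bp in vehicle.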

How the data were processed

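ATAC-seq peak lists of 4 libraries, 1 per group, were used. Bowtie2, bedtools, MACS2 and HOMER are named in the submitters' processing notes, with mm10 as the build; their versions and settings, the filters on reads and a shift for Tn5 insertion are not given in the sources used for this work. The authors deposited a list for each library, called separately and with no header. Columns were taken to be in the order that MACS2 uses for broad peaks. The deposited fold enrichment is a ratio over local background, and the deposited −log10 p and −log10 q come from the authors' peak caller. The deposited score was not used. Such values belong to single peaks and were used to describe, rank and filter within a list. Read depth is unknown.

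Starts were converted to 1-based positions. Each list was ranked by −log10 p, ties by fold. Members overlapped their strong counterparts by at least 1 bp, and the best ranked counterpart gave the values. Genes came from the RefSeq table of GRCm38.p6, in which all listed genes matched, and start sites, strand and sequences from the RefSeq promoter table. Log2 fold ratios were centred on all constitutive regions. With 1 library per group there was no test, no SD and no leave-one-out fit. The genes named follow set rules: best, least variable and most variable ranks, highest and lowest ratios among peaks over 200 bp, widest peaks, peaks nearest the limits, the best ranked of each list, and Sod2, Igf1, Cdkn1a, Cdkn2a and AP-1 genes, with predicted genes left out. Listed genes past 1.5 times, Col1a1 and Pdgfra were picked after their values were seen. The members and the 16 gene and 8 marker lists were chosen with earlier results of these data known. The overlap code was tested on simulated lists, where 100 of 100 planted gene end regions were recovered. Analyses used Python 3.11.15 with scipy 1.17.1, numpy 2.4.6, matplotlib 3.10.9 and pandas 2.3.3. Alternatives changed the number of strong peaks, the ranking, the overlap, the window, the anchor library, the centring, the threshold and the widths.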

Additional observations from a re-analysis of the deposited data

How the results depend on the processing

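The depth behind the peaks is unknown and limits every value here. No paired analysis was possible because each group has 1 library, and leaving a library out of a group was not possible for the same reason.

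With the 15000 strongest peaks there were 3549 members, 77.8% of the gene end peaks. The median log2 fold ratio was −0.16 for the knockout over control and −0.13 for rotenone over vehicle (−0.20 and −0.16 as reported), the median width ratio 0.862 and 0.895 (0.840 and 0.880), and the median change of rank in rotenone −121 places (−235). The knockout had 122 members higher and 62 lower, rotenone 90 and 45, and 41 were higher in vehicle than in control. With the 60000 strongest, the share was 77.1%, the knockout ratios were −0.22 in log2 fold and 0.827 in width, and rotenone had −319.5 places and a width ratio of 0.871. Then 236 were lower in the knockout, 311 were higher and 230 lower in rotenone, and 122 were higher and 49 lower in vehicle. Ranking by fold gave a share of 78.9% and rank changes of −638.5 in the knockout (−114 as reported) and −667.5 in rotenone. Requiring 50% of the control peak to be covered gave a share of 67.6%, log2 ratios of −0.23 and −0.17, width ratios of 0.880 and 0.901, and 101, 120 and 17 members higher in the knockout, rotenone and vehicle. The median rank in the knockout was then 58 places worse than in control, a reversal whose cause was not tested, and in rotenone it was −118. Windows of 500 bp and 2500 bp gave shares of 82.4% and 76.6%. Peaks over 200 bp had width ratios of 0.849 and 0.888.

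With no centring, 50 members were higher and 593 lower in the knockout, 43 and 410 in rotenone, and 102 and 17 in vehicle. At 2 times, the counts were 20 and 4, 6 and 5, and 6 and 0 in the same order. With 1 taken from each fold they were 391 and 229, 293 and 162, and 109 and 44. Among members of like width, an alternative chosen after seeing the data, 17 were higher and 79 lower in the knockout, 14 and 44 in rotenone, and 0 and 1 in vehicle, from fewer regions. Autosomes alone and the knockout list as the anchor stayed within the counting range or 1.5 times of the values reported for the results they were run on, and so did the counterpart of highest fold, which was run for the counts of members past 1.5 times.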
